A study of Mus musculus with 12 samples.

Results

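Gpr37l1, Adora1, Adora2b, P2ry1, Grm3, Grm5, Adra1a, Adra1b, Ednrb and S1pr1 encode G protein-coupled receptors through which astrocytes sense neurotransmitters, nucleosides, peptides and lipids. The set was defined by gene symbol, with no rule on levels, and all 10 members were found by symbol among the 24421 gene entries of the table. They were measured by RNA sequencing of GFP-sorted cells from the cerebellum of Aldh1l1-GFP mice, with 3 libraries at each of postnatal day 1 (P1), P7, P14 and P28. GFP in these mice is driven by Aldh1l1 regulatory sequence, so all 4 groups share the transgene and the sorting for GFP. Age is the difference that the labels give. Whether all ages were sorted and sequenced together is not stated, and any such difference cannot be told apart from age. Whether a library came from 1 animal or from pooled animals is not stated in the labels, so the p-values measure the spread between libraries. The comparisons ask how receptor expression changes while the cerebellar layers form.

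Astrocytes read synaptic and vascular activity largely through such receptors. Those coupled to Gq (P2ry1, Grm5, Adra1a, Adra1b and, in part, Ednrb) activate phospholipase C and release calcium from internal stores, while those coupled to Gi (Adora1, Grm3, S1pr1) restrain adenylyl cyclase and Adora2b, coupled to Gs, stimulates it. Gpr37l1 is an orphan receptor enriched in astrocytes, for which prosaposin has been proposed as a ligand, and in the cerebellum it is best known from Bergmann glia.

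Libraries held 6399499 to 14733985 reads on genes. Levels are given as normalized counts, that is, reads divided by a size factor for each library, in which 1 read was worth 0.615 to 1.46. A change was called at an adjusted p under 0.05 in a limma fit over the 15464 genes tested, and all 10 receptors passed the filter on low values. Individual receptors had between 5 and 34395 reads in a library. All 9 astrocyte markers (Aldh1l1, Slc1a3, Slc1a2, Aqp4, Gja1, Aldoc, Sox9, Gfap and S100b) had reads at every age, and their summed level ranged between 53671 and 68334 (P1), 27222 and 50479 (P7), 144365 and 181313 (P14), and 343885 and 402155 (P28). The sorted cells also carried RNA of other types. The sum of 7 oligodendrocyte markers, all of which had reads at every age, lay between 1474 and 2283 (P1), 21424 and 32858 (P7), 306924 and 366221 (P14), and 101532 and 141291 (P28). For 4 choroid plexus markers it lay between 273 and 751 (P1), 47740 and 127208 (P7), 877 and 108741 (P14), and 17738 and 182142 (P28). P7 replicate 2 stood apart, with the fewest reads of the 12 libraries, the lowest astrocyte marker sum, the highest sum of 8 endothelial markers (11825, against 942 to 7019 elsewhere) and the highest choroid plexus sum at P7. Calls that rest on this library are therefore given with and without it. P1 replicate 2 had the highest sum of 5 pericyte markers of the 12 libraries (6812, against 2963 and 2147 in P1 replicates 1 and 3). Its endothelial sum of 3981 was the highest at P1. Its sum of 4 granule neuron precursor markers was the lowest at P1 (6736, against 12231 and 12151). In bulk RNA, fewer cells of a type and less RNA per cell cannot be told apart.

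Expression of the set did not follow a single course. From P1 to P7, Gpr37l1 rose and 7 receptors fell (Adora1, Adora2b, P2ry1, Grm3, Grm5, Ednrb and S1pr1), where 3.47% of all genes tested were called higher and 4.24% lower. The median log2 fold change of the 10 was -1.37, against 0.037 over all genes. From P7 to P14, 5 rose (Gpr37l1, Adora1, P2ry1, Adra1a and S1pr1) and 0 were called lower, with 10.8% and 10.0% of all genes called higher and lower and medians of 1.43 and -0.086. At an unadjusted p under 0.05, 0 of the 10 were lower in this step as well, and edgeR and DESeq2 also called 0 lower. From P14 to P28, 4 rose (P2ry1, Grm3, Ednrb and S1pr1) and Grm5 fell, against 5.68% and 8.76% of all genes and medians of 0.95 and -0.12.

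Over the whole course, P28 against P1, Gpr37l1, Adora1, P2ry1 and S1pr1 were higher and Grm3 and Grm5 lower, with 14.6% of all genes called higher and 20.0% lower. The median was 1.08 for the receptors and -0.24 for all genes. For the pairs of ages that are not neighbours, P14 against P1 gave 2 higher (Gpr37l1 and S1pr1) and 3 lower (Adora2b, Grm3 and Grm5), with a background of 10.4% and 9.99%. P28 against P7 gave 8 higher and, for Grm5, 1 lower, with a background of 16.2% and 23.0%. These comparisons share libraries and are not independent of each other. Without P7 replicate 2 the count of called receptors went from 8 to 4 at P7 against P1, from 5 to 3 at P14 against P7, from 5 to 6 at P28 against P14 and from 6 to 8 at P28 against P1. The count at P7 against P1 was also 4 without P1 replicate 2, and 5 without P1 replicate 1 or without P7 replicate 3. The count at P14 against P7 was also 3 without P14 replicate 2, and that at P28 against P14 was 3 without P14 replicate 3.

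**Figure D1:**
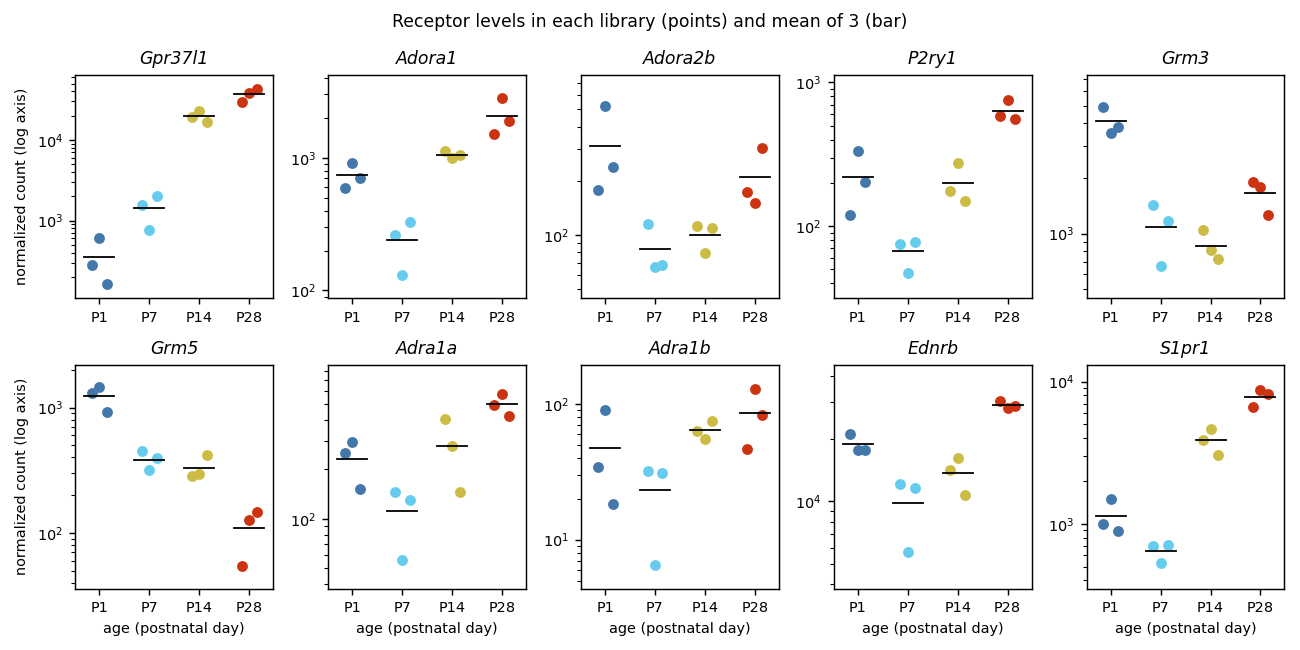
Normalized count (log axis, a separate scale for each receptor) of the 10 receptors at P1, P7, P14 and P28. Points are the 3 libraries of an age and the bar is their mean. Gpr37l1 climbs from 163 to 613 at P1 to between 29713 and 43086 at P28, Grm5 descends from 915 to 1464 to between 54.1 and 146, and most other receptors are lowest at P7 or P14.

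**Figure D2:**
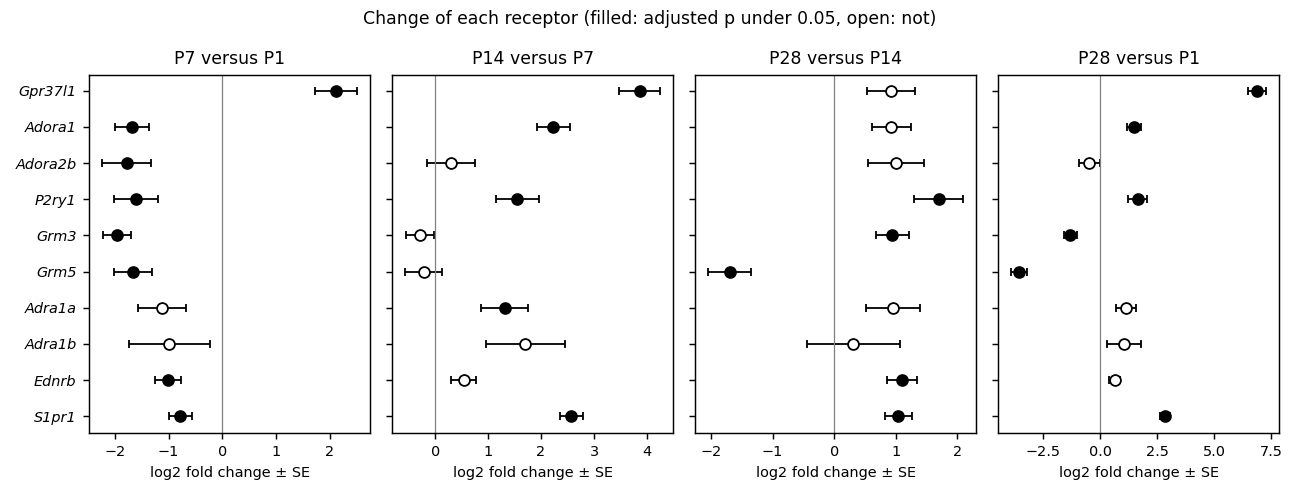
Log2 fold change of each receptor with its SE in the 3 consecutive steps and from P1 to P28, from limma on log2(normalized count + 1). The horizontal scale differs between panels. Filled points are called (adjusted p under 0.05), and the panel of P7 versus P1 shows 8 of them, 7 to the left of 0.

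Sequence upstream of the transcription start is shown for the 4 receptors with a single RefSeq start whose first bases lie in a GENCODE transcript, to set the receptor that rose most, Gpr37l1, beside 3 that fell from P1 to P7 and were higher again at P28 than at P7. An entry existed for 7 of the 10 receptors, and Grm5, Adra1a and S1pr1 had none. For Ednrb the window lies inside the gene as GENCODE places it (chr14:103814625-103844402, minus strand). The 5′ end of that gene model is further upstream than the RefSeq start used here. Each line holds the 250 bases before the start from RefSeq on GRCm38.p6, written 5′ to 3′ on the gene's strand, with capitals for the letters TTGGC or their reverse complement, the half-site read by nuclear factor I, a family of astrocyte transcription factors.
Gpr37l1 (chr1:135167682-135167931, minus strand): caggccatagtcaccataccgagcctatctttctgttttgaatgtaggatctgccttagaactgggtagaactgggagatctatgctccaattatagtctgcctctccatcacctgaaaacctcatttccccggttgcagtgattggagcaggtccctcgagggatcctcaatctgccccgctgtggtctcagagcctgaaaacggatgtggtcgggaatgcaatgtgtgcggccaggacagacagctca
P2ry1 (chr3:61002535-61002784, plus strand): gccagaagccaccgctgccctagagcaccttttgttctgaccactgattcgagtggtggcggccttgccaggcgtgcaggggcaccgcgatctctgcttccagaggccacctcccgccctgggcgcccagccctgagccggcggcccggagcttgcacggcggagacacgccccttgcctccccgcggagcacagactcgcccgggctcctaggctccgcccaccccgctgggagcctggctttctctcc
Adora2b (chr11:62248734-62248983, plus strand): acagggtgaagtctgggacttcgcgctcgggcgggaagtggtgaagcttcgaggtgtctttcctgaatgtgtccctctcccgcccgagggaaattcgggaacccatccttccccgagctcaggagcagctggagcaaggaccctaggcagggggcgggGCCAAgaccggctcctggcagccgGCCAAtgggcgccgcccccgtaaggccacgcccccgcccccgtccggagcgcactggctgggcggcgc
Ednrb (chr14:103843702-103843951, minus strand): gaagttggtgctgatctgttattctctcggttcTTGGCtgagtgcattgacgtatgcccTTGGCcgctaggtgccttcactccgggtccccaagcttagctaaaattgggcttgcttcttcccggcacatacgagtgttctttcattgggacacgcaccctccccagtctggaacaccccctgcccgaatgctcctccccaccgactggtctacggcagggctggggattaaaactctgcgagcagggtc

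These letters occurred 2 times in the window of Ednrb, 2 times in that of Adora2b and 0 times in those of Gpr37l1 and P2ry1. Of the 32851 upstream windows of the same length, 41.5% hold them on either strand. In Adora2b, 1 of the 2 shared letters with a CCAAT box (CCAAT on either strand, present in 33.8% of windows). Gpr37l1 and Ednrb each had 2 CCAAT boxes and P2ry1 had 0. The letters TATAAA, present in 12.4% of windows, were found in 0 of the 4. Base composition set the windows apart more clearly. GC content was 70.8% for P2ry1 with 20 CpG dinucleotides, 69.6% for Adora2b with 22, 56.8% for Ednrb with 11 and 52% for Gpr37l1 with 7, where the median window had 52.4% and 6. A match describes the sequence and not binding of a factor.

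Gpr37l1 (chr1:135160234-135167681, minus strand, GRCm38) had the largest change of the 10 receptors. Normalized counts were 284, 613 and 163 in P1 replicates 1 to 3, and 1542, 770 and 1993 at P7. They were 18986, 22852 and 16702 at P14, and 29713, 38396 and 43086 at P28. The 4 ages did not overlap at any step. The level rose 4.36-fold from P1 to P7 (log2 2.12 ± 0.40 SE, adjusted p = 0.00408) and 14.5-fold from P7 to P14 (log2 3.86 ± 0.40, adjusted p = 1.09e-05). From P14 to P28 the difference of 0.92 ± 0.40 missed the threshold (adjusted p = 0.134). Across the whole course the increase was 119.7-fold (log2 6.90 ± 0.40, adjusted p = 2.04e-08), and log2 values of 6.45 to 7.40 were obtained in 23 alternative settings. From P1 to P7 the oligodendrocyte marker sum rose as Gpr37l1 did, while the astrocyte sum was lower at P7 than at P1. From P7 to P14 both sums rose. At P28 the oligodendrocyte sum was lower than at P14 (101532 to 141291 against 306924 to 366221). The astrocyte sum and the libraries of Gpr37l1 were higher there. The part of either in the rise of Gpr37l1 was not tested.

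Expression of the companion genes of Gpr37l1 was measured too. Psap, which encodes prosaposin, fell by 1.02 on the log2 scale from P1 to P7 (adjusted p = 0.000937), then rose by 1.58 to P14 (adjusted p = 6.05e-06) and by 0.96 to P28 (adjusted p = 0.00152). Its means were 4092, 1999, 5995 and 11613 normalized counts. Gpr37, the nearest relative and a receptor of oligodendrocytes, had means of 91.6, 91.8, 973 and 750, and was called in the step from P7 to P14 (log2 3.42, adjusted p = 9.14e-06). Per kilobase of exon, Gpr37 stood at 124 ± 16.9 (SD, n = 3) at P28 against 16336 ± 2990 for Gpr37l1. The entries whose log2 levels ran closest to Gpr37l1 over the 12 libraries were one listed as 4-Sep, a date in place of a gene symbol (Pearson r = 0.987), and Dio2, the deiodinase that activates thyroid hormone (r = 0.985). These correlations describe the 4 ages, which all genes share.

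S1pr1 (chr3:115710433-115715072, minus strand), the Gi-coupled receptor of sphingosine 1-phosphate that is abundant in astrocytes and in endothelium, dipped at P7 and then rose. Its normalized counts were 1005, 1494 and 887 at P1 and 701, 526 and 710 at P7. At P14 they were 3854, 4641 and 3068, and at P28 they reached 6636, 8761 and 8145. No 2 neighbouring ages overlapped, and the order P28, P14, P1, P7 was separated at every place. It rose 5.93-fold from P7 to P14 (log2 2.57 ± 0.22, adjusted p = 2.44e-06) and 2.05-fold from P14 to P28 (log2 1.04 ± 0.22, adjusted p = 0.00747). From P1 to P28 the rise was 7.08-fold (log2 2.82 ± 0.22, adjusted p = 3.56e-07), within 2.39 to 3.04 in the 23 alternatives. The fall from P1 to P7 was smaller (log2 -0.78 ± 0.22, adjusted p = 0.0421) and rested on single libraries. Without P1 replicates 1 or 2, any of the 3 P7 libraries or P14 replicate 1, adjusted p was 0.0617 to 0.188, with log2 values of -0.86 to -0.56, and with no filter on low values it was 0.0553. The sum of the 8 endothelial markers ranged from 942 to 3981 (P1), 2041 to 11825 (P7), 6058 to 7019 (P14) and 3791 to 4886 (P28). Of these markers, 6 were called higher at P14 than at P1 and 4 at P28 than at P1, and their part in the rise of S1pr1 was not tested.

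Genes that make, move or break down sphingosine 1-phosphate did not share 1 course. Of 8 listed, 3 were called higher and 0 lower from P7 to P14, with 10.8% and 10.0% over all genes. Sgpp2 rose by 3.35 on the log2 scale from P1 to P7 (adjusted p = 0.00397), where S1pr1 fell. Sgpl1 was lower at P14 than at P1 (log2 -0.83, adjusted p = 0.00337), where S1pr1 was higher. Ppap2b, a lipid phosphate phosphatase of the plasma membrane, had means of 4754, 1586, 7188 and 13671 and changed by -1.63, 2.23 and 0.93 on the log2 scale in the 3 steps. Sphk2, a kinase that makes the lipid, rose by 1.38 from P7 to P14 (adjusted p = 0.0365), and the phosphatase Sgpp1 by 1.05 (adjusted p = 0.00964). Spns2, a transporter that exports the lipid, had means of 50.7, 242, 196 and 37.9, higher at P7 than at P1 (log2 2.25, adjusted p = 0.0158) and lower at P28 than at P14 (log2 -2.38, adjusted p = 0.00889). Among the other receptors of lysophospholipids, S1pr5 went from a mean of 2.39 at P1 to 291 at P14 and 78.4 at P28, and Lpar1 from 357 at P7 to 1687 at P14 (log2 2.25, adjusted p = 9.67e-06) and 1671 at P28. Both are known from oligodendrocytes, whose marker sum was highest at P14 and lower at P28. S1pr2 had means of 131, 58.3, 226 and 450 at P1, P7, P14 and P28. It was also called higher at P14 than at P7 (log2 1.96, adjusted p = 0.00517). Its differences from P1 to P7 (log2 -1.15, adjusted p = 0.142) and from P14 to P28 (log2 0.88, adjusted p = 0.192) were not called. The part of oligodendrocytes in these rises was not tested. Closest to S1pr1 over the 12 libraries were Cd81, a tetraspanin, and Atp1b2, a sodium pump subunit of astrocytes (both r = 0.993).

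Ednrb (chr14:103814625-103844402, minus strand), the endothelin B receptor, was the most abundant of the set at P1. It had 21161, 17702 and 17565 normalized counts at P1 and 12057, 5735 and 11623 at P7. Libraries of P14 had 14126, 16204 and 10758, and those of P28 had 30141, 28161 and 28691. P28 lay above all other ages, while P7 and P14 overlapped. The level fell by 1.01 ± 0.24 on the log2 scale from P1 to P7 (2.02-fold, adjusted p = 0.0180) and rose 2.15-fold from P14 to P28 (log2 1.10 ± 0.24, adjusted p = 0.00862). The increase from P7 to P14 of 0.54 ± 0.24 was not called (adjusted p = 0.135). P28 exceeded P1 by 0.63 ± 0.24 (adjusted p = 0.0550), and without P7 replicate 2, which enters only through the estimate of the spread, adjusted p was 0.00598. Without P1 replicate 1 the fall from P1 to P7 was -0.92 and no longer called (adjusted p = 0.0858).

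Among the endothelin genes, Edn3 had means of 282, 229, 454 and 103 normalized counts and was lower at P28 than at P14 (log2 -2.29, adjusted p = 0.00828). Edn1 stood at 71.2, 69.6, 169 and 101.5 and was called in 0 of the 3 steps, with adjusted p of 0.187 to 0.984. Ece1, an endothelin-converting enzyme, fell by 0.88 between P1 and P7 (adjusted p = 0.0254), while Ece2 rose by 1.61 from P14 to P28 (adjusted p = 0.0133). Ednra, the other endothelin receptor, had a mean of 66.8 per kilobase at P1 and 124 at P28, where Ednrb had 4409 and 6797. Itgb8, an integrin subunit (r = 0.977), and Npas3, a transcription factor (r = 0.969), ran most like Ednrb.

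Both glutamate receptors fell after P1, then parted. Grm3 (chr5:9485541-9725170, minus strand), the Gi-coupled receptor of the pair, had 4926, 3539 and 3832 normalized counts at P1 and 1441, 665 and 1174 at P7. It had 1043, 812 and 724 at P14 and 1925, 1795 and 1258 at P28. All P1 libraries were above all others, and P7 overlapped with P14 and with P28. The fall from P1 to P7 was 3.90-fold (log2 -1.96 ± 0.27, adjusted p = 0.000459), and P28 was still 2.49-fold below P1 (log2 -1.31 ± 0.27, adjusted p = 0.00173). Grm3 was 1.92-fold higher at P28 than at P14 (log2 0.94 ± 0.27, adjusted p = 0.0305). That rise was not called without P14 replicate 2, P14 replicate 3, P28 replicate 1 or P28 replicate 2 (log2 0.82 to 0.91, adjusted p = 0.0657 to 0.113), with scaling by library totals alone (log2 0.70, adjusted p = 0.0888) or with only the 2 ages in the fit (adjusted p = 0.0651).

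Grm5 (chr7:87584168-88134907, plus strand), the Gq-coupled receptor of young astrocytes and of many neurons, was the receptor whose decline went on to P28. Counts were 1308, 1464 and 915 at P1 and 447, 315 and 394 at P7. At P14 they were 284, 297 and 416, and at P28 they were 54.1, 127 and 146. P1 lay above and P28 below the rest, with P7 and P14 overlapping. Its level fell by 1.66 ± 0.35 on the log2 scale in the first step (adjusted p = 0.00933) and by 1.70 ± 0.35 in the last (adjusted p = 0.00699), with no call between P7 and P14 (log2 -0.22 ± 0.35, adjusted p = 0.733). P28 was 11.9-fold below P1 (log2 -3.57 ± 0.35, adjusted p = 3.84e-06), and the 23 alternatives gave -4.01 to -3.13. For the first step adjusted p was 0.0502, 0.0562 and 0.0523 without P1 replicate 1, P1 replicate 2 and P7 replicate 2, with log2 values of -1.60, -1.52 and -1.52. For the last it was 0.101 with only the 2 ages in the fit. The sum of 4 genes listed as markers of granule neuron precursors lay between 6736 and 12231 (P1), 16399 and 22202 (P7), 568 and 1059 (P14), and 21.2 and 36.5 (P28). This sum rose from P1 to P7, where Grm5 fell, and its part in the fall of Grm5 was not tested. Most of this sum came from Mki67 and Top2a, which mark cycling cells of any type (means of 6704 and 3612 at P1, and 11544 and 7078 at P7). Barhl1 and Atoh1, which are closer to the lineage, had means of 45.5 and 10.6 at P1 and of 216 and 36.4 at P7, and Atoh1 had no read at P14 or P28. The sum of 6 oligodendrocyte precursor markers lay between 7309 and 11489 (P1), 3750 and 4614 (P7), 7402 and 8509 (P14), and 2461 and 2988 (P28). It fell in the first and in the last step, as Grm5 did, and rose from P7 to P14. In the 3 steps, 0, 3 and 0 of the 6 markers were called higher and 2, 1 and 4 lower. Pdgfra was called lower in each, with means of 3646, 1281, 720 and 353. The part of these cells in the fall of Grm5 was not tested either.

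Within each library, the ratio of Grm3 to Grm5 is free of the size factor. Its geometric mean was 3.36 (P1), 2.72 (P7), 2.59 (P14) and 16.1 (P28). Libraries of P28 ranged from 8.56 to 35.0 and those of the other ages from 1.74 to 4.19, without overlap. An exact two-sided permutation test over the 4 ages gave p = 0.0101, or 0.0151 after Benjamini-Hochberg adjustment over the 3 ratios tested. Of the other metabotropic receptors, Grm4, known from granule neurons, had means of 26.3, 185, 2339 and 1047, and rose by 2.76 and 3.57 on the log2 scale in the first and in the second step (adjusted p = 0.000341 and 9.54e-06). Sums of 5 granule neuron markers were 323 to 610, 2545 to 4530, 8158 to 17587 and 5312 to 6831 at the same ages. Genes most like Grm3 were Sox21 (r = 0.958), a transcription factor of progenitors, and Sorcs2 (r = 0.949), and those most like Grm5 were Nr4a1 (r = 0.977), an activity-induced nuclear receptor, and Lrrtm2 (r = 0.964), a synaptic adhesion protein.

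Adora1 and Adora2b, the adenosine receptors of the set, both fell to P7 and were both higher at P28 than at P7. Adora1 (chr1:134199223-134235431, minus strand), coupled to Gi, had 593, 911 and 703 normalized counts at P1, 263, 131 and 326 at P7, 1128, 993 and 1044 at P14, and 1508, 2821 and 1900 at P28. Neighbouring ages did not overlap, and P7 was lowest. The level fell 3.22-fold from P1 to P7 (log2 -1.69 ± 0.31, adjusted p = 0.00393) and rose 4.69-fold from P7 to P14 (log2 2.23 ± 0.31, adjusted p = 0.000154), and P28 was 8.93-fold above P7 (log2 3.16 ± 0.31, adjusted p = 3.00e-06). P28 was 2.77-fold above P1 (log2 1.47 ± 0.31, adjusted p = 0.00240). For P28 against P14 the difference of 0.93 ± 0.31 had an adjusted p of 0.0613, and it was called without P7 replicate 2 (0.0248), without P28 replicate 1 (log2 1.14, 0.0362), by edgeR (0.0497 and 0.0471) and by DESeq2 (0.0219). Exons of Adora1 overlap those of Mybph on the opposite strand by 1162 bases. Mybph had at most 21 reads in a library, and whether the counting used strand is not stated.

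Adora2b (chr11:62248984-62266453, plus strand), coupled to Gs, had 177, 519 and 240 at P1 and 115, 66.7 and 68.2 at P7. P14 libraries had 112, 79.3 and 110, and P28 libraries had 172, 151 and 306. P1 and P28 overlapped, and P7 and P14 overlapped. Adora2b fell by 1.78 ± 0.46 on the log2 scale from P1 to P7 (adjusted p = 0.0278) and was below P1 at P14 (log2 -1.49 ± 0.46, adjusted p = 0.0330). It was 2.46-fold higher at P28 than at P7 (log2 1.30 ± 0.46, adjusted p = 0.0371), and P28 against P1 gave -0.49 ± 0.46 (adjusted p = 0.433). The first of these calls was lost without P1 replicates 2 or 3 or P7 replicates 2 or 3 (log2 -1.90 to -1.34, adjusted p = 0.0560 to 0.164). The second was lost without P1 replicates 2 or 3 or any P14 library (log2 -1.60 to -1.05, adjusted p = 0.0587 to 0.160). The third was lost without P1 replicate 3, P7 replicates 2 or 3 or P28 replicate 3 (log2 0.99 to 1.30, adjusted p = 0.0511 to 0.116), with library totals alone (log2 0.81, adjusted p = 0.159) and with only the 2 ages in the fit (adjusted p = 0.0736).

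The ratio of Adora1 to Adora2b was higher at P14 and P28 than at P1 and P7. Geometric means were 2.58, 2.75, 10.5 and 10.0 at P1, P7, P14 and P28. Libraries of P1 and P7 lay between 1.75 and 4.73 and those of P14 and P28 between 6.20 and 18.6 (exact permutation test over the 4 ages, two-sided, p = 0.00753, adjusted p = 0.0151). Of 11 genes of adenosine and nucleotide handling, Adk, the kinase that clears adenosine in astrocytes, had means of 117, 147, 385 and 769 and rose in the second and in the third step (log2 1.38 and 1.00, adjusted p = 0.00128 and 0.0177). Ada, adenosine deaminase, had means of 38.2, 53.8 and 6.82 at P1, P7 and P14. It had 0 reads at P28, where the limit that a count of 0 allows was 3.54 to 4.38 normalized counts. Slc29a1, an equilibrative nucleoside transporter, was at 156, 547, 143 and 89.2, up by 1.82 at P7 (adjusted p = 0.0196) and down by 1.95 at P14 (adjusted p = 0.00545). Ndrg2 (r = 0.982) and Igsf11 (r = 0.980), both known from astrocytes, ran most like Adora1, and Iqcg (r = 0.938) and Dbt (r = 0.935) most like Adora2b.

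**Figure D3:**
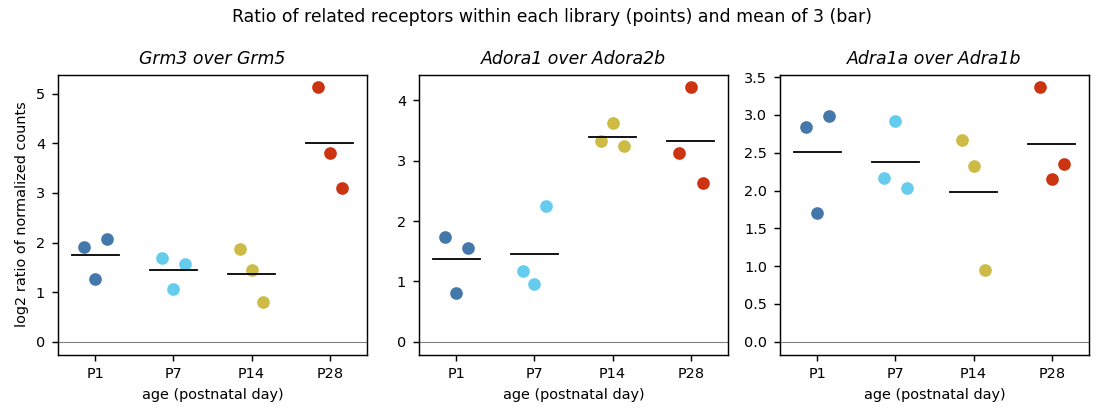
Log2 ratio of normalized counts within each library for Grm3 over Grm5, Adora1 over Adora2b and Adra1a over Adra1b at P1, P7, P14 and P28. Points are libraries, bars are means of 3. The first ratio is set apart at P28 (8.56 to 35.0 against 1.74 to 4.19), the second divides P1 and P7 from P14 and P28, and the third overlaps at all ages.

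P2ry1 (chr3:61002795-61008982, plus strand), the Gq-coupled receptor of ADP and ATP, changed in each step. It had 119, 334 and 201 normalized counts at P1, 75.6, 47.1 and 77.5 at P7, 175, 276 and 149 at P14, and 586, 757 and 553 at P28. P28 lay above and P7 below all others, while P1 and P14 overlapped. The fall to P7 was 3.04-fold (log2 -1.61 ± 0.41, adjusted p = 0.0253), followed by rises of 2.93-fold to P14 (log2 1.55 ± 0.41, adjusted p = 0.0135) and 3.23-fold to P28 (log2 1.69 ± 0.41, adjusted p = 0.0140). P28 was 3.12-fold above P1 (log2 1.64 ± 0.41, adjusted p = 0.00636), which held in the 23 alternatives. The single steps rested on few reads (36 to 642 in a library). Without P1 replicates 2 or 3 or any P7 library the fall was not called (log2 -1.73 to -1.24, adjusted p = 0.0530 to 0.139). Likewise the second step was lost without P7 replicate 2 (1.32, adjusted p = 0.0628) or P14 replicate 2 (1.29, adjusted p = 0.0695), and the third without P14 replicate 3 (1.51, adjusted p = 0.0587). An antisense gene, Gm37035, overlaps 992 bases of its exons. P2ry12, a receptor of microglia, was called higher at P7 and P14 (log2 1.41 and 1.53, adjusted p = 0.00598 and 0.00132), with means of 90.2, 243, 693 and 778. Sums of the 7 other microglia markers were 451 to 1317, 967 to 1428, 1544 to 2366 and 591 to 1257 at the same ages. From P14 to P28, 0 of the 5 tested P2Y relatives were called higher and 2 lower. These were P2ry6 (means 56.9 and 0, adjusted p = 0.00614) and P2ry13 (means 85.6 and 13.7, adjusted p = 0.0427). Spred1 (r = 0.975), an inhibitor of Ras signalling, and Lrtm2 (r = 0.974) ran most like P2ry1.

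The noradrenaline receptors were among the least abundant per kilobase, at 12.7 to 57.1 for Adra1a and 6.84 to 25.5 for Adra1b in the means of the 4 ages. Adra1a (chr14:66635251-66771168, plus strand) had 252, 295 and 151 normalized counts at P1, 147, 56.3 and 129 at P7, 408, 279 and 146 at P14, and 491, 580 and 423 at P28. P28 was above the other ages, and P14 overlapped with P1 and P7. Its difference of 1.31 ± 0.44 from P7 to P14 was called at an adjusted p of 0.0487, close to the threshold. Adjusted p was 0.0512 to 0.216 without P1 replicates 1 or 2, P7 replicates 2 or 3, P14 replicates 1 or 2 or P28 replicate 1, with a log2 value of 0.88 without P7 replicate 2, and 0.0542 to 0.0969 with library totals, a pseudocount of 0.1, no filter or only the 2 ages. P28 was 4.79-fold above P7 (log2 2.26 ± 0.44, adjusted p = 0.00109), in all 23 alternatives, whereas P28 against P1 gave 1.14 ± 0.44 (adjusted p = 0.0597). The latter was called without P7 replicate 2 (0.0401), without P14 replicate 3 (0.0426), by DESeq2 (0.0367) and with only the 2 ages in the fit (0.0444).

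Adra1b (chr11:43774606-43901210, minus strand), the other receptor coupled to Gq, had 34.5, 90.0 and 18.2 at P1 and 31.8, 6.54 and 31.0 at P7. It had 63.5, 55.0 and 74.9 at P14 and 46.8, 130 and 82.5 at P28. P1 and P28 overlapped with each other and with P14. With 5 to 126 reads in a library, its level was called in 0 of the 3 steps, and the largest of these differences was 1.70 ± 0.75 from P7 to P14 (adjusted p = 0.132). P28 against P7 was called (log2 2.01 ± 0.75, adjusted p = 0.0465), a call lost without P7 replicate 2 (log2 1.31, adjusted p = 0.214), without P1 replicate 1, P7 replicates 1 or 3, any P14 library or P28 replicates 2 or 3 (log2 1.66 to 2.37, adjusted p = 0.0530 to 0.118) and with edgeR (0.0630 and 0.0655), library totals alone (log2 1.54, adjusted p = 0.102), a pseudocount of 0.1 (0.0538), no filter on low values (0.0637) or only the 2 ages in the fit (0.104). It was made in 6 of 22 alternatives. The ratio of Adra1a to Adra1b had geometric means of 5.70, 5.18, 3.94 and 6.15 and an exact permutation p of 0.716, with overlapping ages. Among their relatives, Adra2a rose by 2.84 from P7 to P14 (means 37.8 and 277, adjusted p = 7.59e-05), and Adrb1 was higher at P28 than at P1 (177 against 43.8, log2 1.98, adjusted p = 0.0158). Maoa and Maob, which break down noradrenaline, were higher at P28 than at P1 (log2 1.20 and 2.30, adjusted p = 0.000414 and 0.00483). Adgra1 (r = 0.960) and Gm5523 (r = 0.974) ran most like Adra1a, and Gm12070 (r = 0.927) and Ddit4 (r = 0.914), a stress-induced inhibitor of mTOR, most like Adra1b.

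Compared per kilobase of exon, the make-up of the set turned over between P7 and P14. The summed normalized count per kilobase came to 6787 ± 638 (SD, n = 3) in P1 libraries, 3661 ± 1280 in those of P7, 13725 ± 2268 in those of P14 and 26966 ± 3084 in those of P28. Ednrb made up 61.1 to 67.0% of it at P1 and 61.6 to 64.2% at P7, then 22.0 to 24.2% at P14 and 22.8 to 30.0% at P28. Gpr37l1 made up 1.17 to 3.98%, 15.4 to 20.0%, 61.2 to 64.1% and 55.6 to 64.4% at the same ages. For Grm3 the mean share went from 19.8% at P1 to 2.06% at P28, and for S1pr1 from 5.47% to 9.55%. Grm5 fell from 1.76% to 0.0385%.

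**Figure D4:**
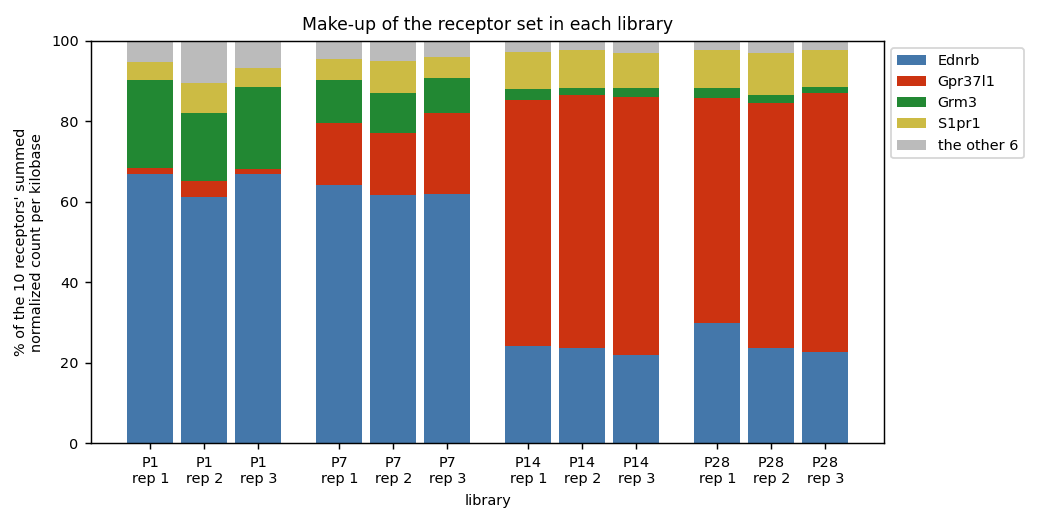
Share (percent) of each receptor in the summed normalized count per kilobase of the 10 receptors, 1 stacked bar for each library. Ednrb fills over 60% of every bar at P1 and P7, and Gpr37l1 over 55% of every bar at P14 and P28.

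The 9 astrocyte markers changed too. From P1 to P7, 2 were called higher and 5 lower. At P28 against P1, 8 were called higher and Aldh1l1 lower (log2 -0.76, adjusted p = 0.0286). Each receptor was therefore also set against the mean log2 level of these markers in its own library, which needs no size factor. These differences are a description. Gpr37l1 started at -3.65 ± 0.77 (SD, n = 3), came to -0.98 ± 0.35 by P7 and 1.14 ± 0.077 by P14, and ended at 0.88 ± 0.16. It gained on the markers up to P14, and all 3 libraries of P28 (0.70 to 0.98) lay slightly below those of P14 (1.10 to 1.23). S1pr1 went from -1.80 ± 0.30 (P1) and -2.03 ± 0.22 (P7) to -1.20 ± 0.14 (P14) and -1.35 ± 0.17 (P28). Its gain from P7 to P14 was 0.83, and the libraries of these ages did not overlap. From P1 to P28 the mean of Adora1 went from -2.40 ± 0.39 to -3.30 ± 0.45 and that of P2ry1 from -4.25 ± 0.80 to -4.98 ± 0.31. Both were called higher in normalized counts. Against the markers, their P1 and P28 libraries overlapped. Ednrb, with 2.29 ± 0.21 at P1 and 0.55 ± 0.16 at P28, and Grm3, with 0.080 ± 0.29 and -3.60 ± 0.46, lost ground up to P14, and their P14 and P28 libraries overlapped. Grm5 lost ground in each step, with changes of -1.11, -1.96 and -2.88, to -7.61 ± 0.66 at P28. For Adora2b, Adra1a and Adra1b the change from P1 to P28 was -2.86, -1.23 and -1.34, and for Adra1b the libraries of these ages overlapped.

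**Figure D5:**
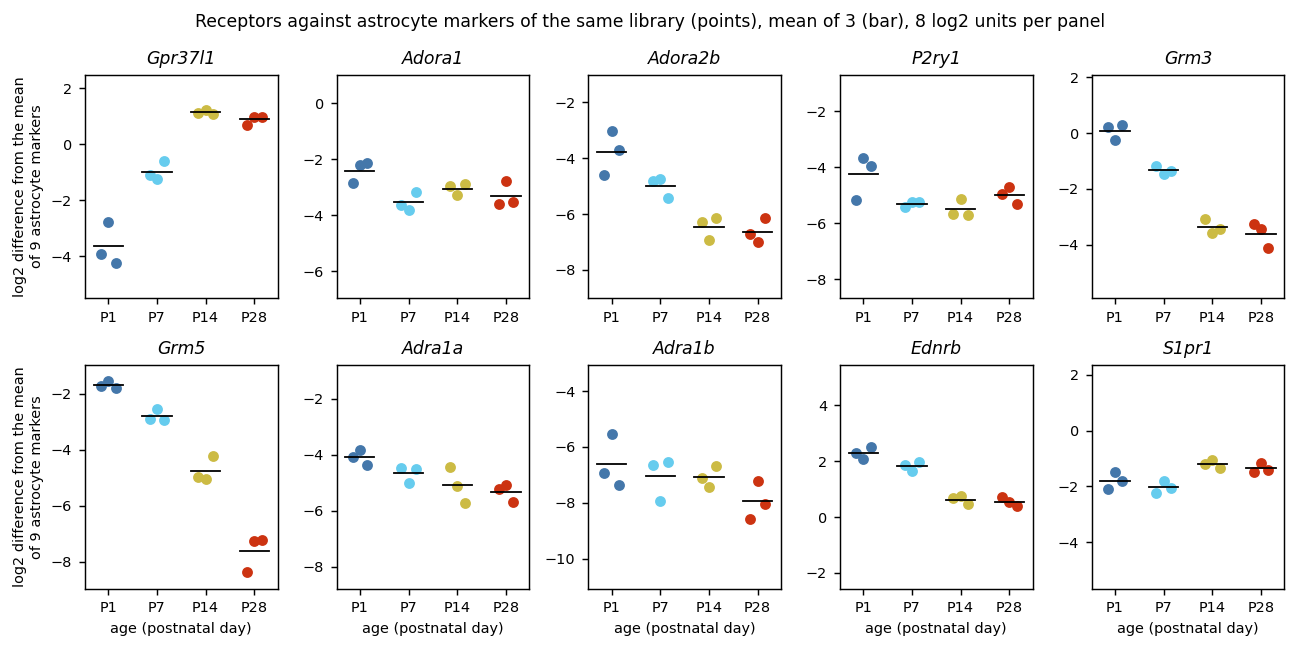
Log2 level of each receptor minus the mean log2 level of 9 astrocyte markers in the same library, at P1, P7, P14 and P28, with 8 log2 units on every vertical axis. Points are libraries and bars are means of 3. In the means, Gpr37l1 ends 4.53 above its P1 value and S1pr1 0.45 above, and the other 8 end below. P1 and P28 libraries overlap for Adora1, P2ry1 and Adra1b.

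Genes of the lists around the receptors are set beside all genes tested, of which 3.47% rose and 4.24% fell from P1 to P7, 10.8% and 10.0% from P7 to P14, and 5.68% and 8.76% from P14 to P28, with median log2 fold changes of 0.037, -0.086 and -0.12. Of 29 G protein, phospholipase C, inositol trisphosphate receptor and adenylyl cyclase genes tested, 3 rose and 3 fell from P1 to P7, 9 (31.0%) rose from P7 to P14, and 6 (20.7%) rose and 3 fell from P14 to P28, with median log2 fold changes of -0.12, 0.17 and 0.27. Plcb1, a phospholipase C activated by Gq, rose in each step (log2 1.60, 1.14 and 0.88, adjusted p = 9.80e-05, 0.000307 and 0.00548), with means of 397, 1199, 2660 and 4896. Gnai2, a Gi subunit, fell by 1.38 to P7 (adjusted p = 0.000129) and rose by 0.53 and 0.65 in the next steps (adjusted p = 0.0258 and 0.0145), and Gna12 and Gna13 also fell to P7 and rose to P14. Gnao1, the Go subunit, rose by 1.60 from P7 to P14 (adjusted p = 1.11e-05). Adcy1 rose by 1.13 and 2.66 in the first and in the second step (adjusted p = 0.00897 and 3.70e-06). Its means were 397, 874, 5655 and 3544, and the third step was not called (adjusted p = 0.0982). Adcy2 rose by 1.42 and 1.75 in the second and in the third step (adjusted p = 0.00695 and 0.00422), and Adcy8 by 1.36 in the third (adjusted p = 0.0299). Adcy5 fell in the third step (log2 -1.83, adjusted p = 0.0184). Itpr2, the inositol trisphosphate receptor of astrocytes, had means of 2356, 2453 and 2602 at P1, P7 and P14 and 2322 at P28, and was called in 0 of the 3 steps (adjusted p = 0.488 to 0.936).

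Of 25 tested regulators (receptor kinases, arrestins, RGS proteins and Homer scaffolds), 1 rose from P1 to P7, 2 rose and 2 fell from P7 to P14, and 3 rose and 2 fell from P14 to P28, with medians of -0.016, 0.17 and -0.11. In the second step these were 8% in either direction, near the shares over all genes. Arrb1, an arrestin, rose by 1.66 to P14 (adjusted p = 1.47e-05) and by 0.58 to P28 (adjusted p = 0.0416). Rgs20, which acts on Gi subunits, rose by 1.37 from P14 to P28 (adjusted p = 0.00277). Homer2, a scaffold that binds group I glutamate receptors, was the member of its list called in the 3 steps, lower by 0.77 at P14 than at P7 (adjusted p = 0.0152). Homer1 was called lower at P28 than at P7 (log2 -0.86, adjusted p = 0.0128). Of 25 tested relatives of the 10 receptors, 3 rose and 1 fell, then 8 (32%) rose, then 5 (20%) fell, with medians of -0.20, 0.63 and -0.74 (-0.64 with genes at 0 reads set to the limit of 3 reads). Of 28 tested ligand and ligand-handling genes, 3 rose and 3 fell, then 8 rose and 3 fell, then 6 rose and 3 fell, with medians of -0.097, 0.45 and -0.49.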

How the data were processed

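Cells were sorted for GFP and their RNA was sequenced in paired ends. The authors mapped reads to mm10 with STAR (version 2.5.0a), counted them per gene and divided the counts by a DESeq2 size factor for each library, so the deposited values are a signal per gene (normalized counts). Deposited values were whole multiples of the worth of 1 read for 100% of values (tolerance 0.01), which gave back reads for depth and count tests. Strand use and the handling of shared reads are not given in the sources used here. Column names were matched through the labels. All of them contain P28, which was not used. Ages were compared with limma 3.58.1 under R 4.3.3, with trended variance, on log2(value + 1), with a mean per age over 12 libraries and Benjamini-Hochberg adjustment over the 15464 genes at 10 or more in at least 3 libraries. Such fold changes are too small for low genes. Ratios were compared by exact permutation over 369600 assignments (smallest p 6.49e-05). Positions and exon lengths came from GENCODE M21 on GRCm38. Alternatives were edgeR (4.0.16), DESeq2 (1.42.0), TMM or library totals, pseudocounts of 0.1 and 10, other filters, subsets of ages, a replicate block and 12 left-out libraries. Named genes were the 10 receptors, called genes of each list (at most 3 for each list and direction, by mean level per kilobase), ligand genes and the 2 genes most correlated with each receptor, with Itpr2, Ednra and Edn1 added as values. Members and lists were chosen with earlier results of these data known. One marker of the astrocyte list is not reported here and entered no sum or mean. Scripts were tested on simulated data.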

Additional observations from a re-analysis of the deposited data

How the results depend on the processing

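Of 1374 recomputed receptor values, 1281 kept their direction and their side of the threshold, 69 were weaker, 17 stronger and 7 reversed. Leaving out each library in turn gave 4 to 8 called receptors at P7 against P1, 3 to 5 at P14 against P7 and 3 to 6 at P28 against P14, and the words of the study's threshold (unadjusted p under 0.05, log2 fold change over 0.75) gave 9 at P28 against P14. Reversals concerned values that were not called. Without single libraries the log2 ratio of Adra1a to Adra1b at P28 against P1 ran from -0.29 to 0.35 (0.11 with all libraries), P2ry1 at P14 against P1 from -0.42 to 0.31, Adra1a at P14 against P1 from -0.15 to 0.59, and Adra1b at P28 against P14 from -0.041 to 0.68. Scaling by library totals gave -0.013 for Adra1a at P14 against P1, and it moved the median of all genes from -0.24 to -0.66 at P28 against P1. The causes were not tested. No test followed for Adra1b with at least 10 reads in every library, which it failed.

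Correlations of same-numbered deviations were weak (-0.029 to 0.139), and those of different numbers were -0.105 to 0.054. The labels do not say that replicate numbers pair the libraries. A replicate block left 8, 5, 5 and 6 receptors called in the 3 steps and at P28 against P1, lost P28 against P7 for Adora2b (adjusted p = 0.0534) and Adra1b (0.0659), and gained it for Grm3 (0.0334). Depth limited Adra1b most, at 5 to 126 reads.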
